A study of Arabidopsis thaliana with 12 samples.

Results

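The transcripts described here are those with the brightest array spots in dim blue light, among spots assigned to a single gene. They were chosen from the intensities themselves: of 692 probes whose annotation named exactly 1 gene, 7 were set aside by name (LHB1B2, PSBW, PSBY, PSAN, AT5G65220, AT3G26630 and AT2G19280), and of the remaining 685 the 60 with the highest mean intensity over the 6 columns at 20 µE were taken. The whole table held 3439 probes. The RNA was that of Arabidopsis thaliana, wild type, ecotype Landsberg, after 48 h of blue light at a photon flux of 20 µE (6 samples) or 200 µE (6 samples). The labels give no tissue, age or number of plants for a sample, and name no transgene, mutation or other agent. None of the 17 leaf, root, seed and senescence markers listed for a check of the tissue had a probe of its own, so the tissue was not checked.

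In green tissue a small number of nuclear genes, many of them for chloroplast proteins, account for much of the messenger RNA. The chloroplast imports most of its proteins from the cytosol, and blue light acts on nuclear genes through cryptochromes and phototropins as well as through photosynthesis itself. A spot's brightness also depends on the length and binding of its probe, so the ranks given here order spots by brightness, not transcripts by abundance. Comparisons of level are made for each probe between the lights.

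Before the results, some features of the columns bear on all of them. Within a group, neighbouring columns (1 with 2, 3 with 4, 5 with 6) deviated from the group mean together, so each such couple was averaged and counted as 1 sample. Errors of intensities and shares are SDs over 3 couple means, and errors of log2 changes are standard errors from the limma fit. The couples are known from the values, not from the labels. Nothing in the labels says that different plants were used for each sample, so p-values measure only the spread between these couples, which may be technical. Columns 5 and 6 at 20 µE had medians of 0.406 and 0.401 units, against 0.539 to 0.574 in the other 4, and 40 of the 60 members were lowest at 20 µE in this couple. At 200 µE the column medians were 0.171 to 0.218 units. Because such shifts move every log ratio, the test used quantile-normalised log2 values, which depend on a probe's rank within its column. As deposited, the median change over the 3175 probes with any value above 0 was -1.19 on the log2 scale, and after median centring it was 0.16. No member was listed at 0 in any column.

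The brightest spots were bright in both lights. At 20 µE, 4 members had means over 20 units, 9 lay between 5 and 20, 21 between 2 and 5, and 26 under 2. The 12 highest all stayed among the 60 brightest single-gene probes at 200 µE, and the furthest any of them dropped was 6 places. Of the members ranked 13 to 30, 17 of 18 stayed, and of those ranked 31 to 60, 11 of 30. In all 40 of the 60 (66.7%) were again among the 60 brightest at 200 µE, and 20 other probes took the open places. Their ranks by mean at the 2 intensities correlated at 0.79 (Spearman) across the 60 members, which are genes on shared columns and no independent replicates. Lists of the 60 brightest made from single couples shared 32 to 39 probes between the lights, 35 to 46 between couples at 20 µE and 47 to 54 between couples at 200 µE. The medians were 36, 39 and 49. The lists thus differed between the lights by little more than between couples at 20 µE, but by more than between couples at 200 µE. At 20 µE, columns 1 and 2 shared 46 with columns 3 and 4, while columns 5 and 6 shared 39 and 35 with these couples.

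**Figure D1:**
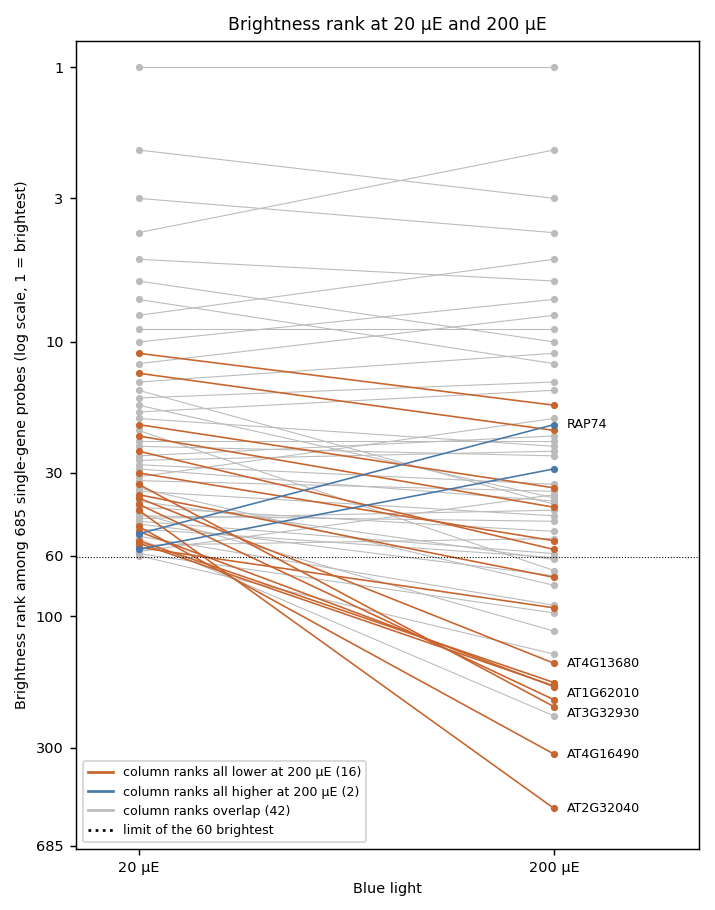
Brightness rank of each of the 60 members among 685 single-gene probes, by mean intensity at 20 µE (left) and 200 µE (right), on a log scale with the brightest at the top. Orange lines mark the 16 members whose ranks in all 6 columns at 200 µE were below those in all 6 at 20 µE, blue lines the 2 with the opposite order, and grey lines the 42 with overlapping ranks; the 12 brightest stayed above the dotted limit, and AT2G32040 ended at place 500.

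The brightest probe was that of AT2G27290, an uncharacterised protein related to the FAM210 family, in every column of both groups. Its intensity at 20 µE had a lowest value of 60.6, a median of 62.4 and a highest of 100 units, and at 200 µE 59.9, 65.5 and 67.6 units. Columns 5 and 6 at 20 µE held its highest values, and the other 10 columns lay close together. Column 5 measured 99.7 units, and column 6 was at the upper end of the scale, where a value is a bound. Its change has no settled size, since 1 of its values is a bound and its sign turned with the scaling. It was -0.77 on the log2 scale after quantile normalisation (limma, adjusted p = 0.065), -0.16 as deposited and 1.20 under median centring (adjusted p = 0.039).

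Places 2 to 4 at both intensities went to the same 3 genes. AT4G22830, which resembles the YCF49 protein of algal plastids, measured 23.2, 33.2 and 35.6 units at 20 µE (lowest, median, highest) and 15.9, 29.5 and 37.4 at 200 µE. AT4G17070, a peptidyl-prolyl isomerase of the kind that assists protein folding, measured 15.3, 28.4 and 39.1 units and 18.9, 28.03 and 29.5. AT4G31530, a protein with a nucleotide-binding Rossmann fold, measured 21.9, 25.2 and 31.3 units and 24.4, 28.8 and 38.6. The groups overlapped for all 3, and none passed (adjusted p = 0.12, 0.57 and 0.47). Together with AT2G27290 these 4 genes held 44.2 to 52.7% of the members' summed intensity at 20 µE and 43.8 to 49.3% at 200 µE.

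After a gap came CCL, a transcript known for rapid decay and for control by the circadian clock. It measured 8.59, 9.46 and 12.2 units at 20 µE and 7.28, 11.1 and 12.2 at 200 µE, ranking between 5 and 8 in every column of both groups. AT5G38360, an alpha/beta-hydrolase, had means of 9.57 ± 3.56 and 8.04 ± 1.21 units (SD, n = 3 couples). AT4G19900, a glycosyltransferase, had means of 8.79 ± 5.23 and 5.80 ± 2.52 units. AT2G46220, a protein of unknown function, measured 5.52, 7.60 and 15.01 units at 20 µE and 6.47, 13.2 and 21.9 at 200 µE. Its spread was wide in both groups, and its log2 change of 0.58 ± 0.36 did not pass (adjusted p = 0.26). AT4G29890, related to choline monooxygenases, measured 4.40, 6.23 and 7.94 units at 20 µE and 3.96, 4.29 and 5.48 at 200 µE. It was the only one of the 12 brightest whose ranks did not overlap, at 7 to 12 in the 20 µE columns and 13 to 21 in the 200 µE columns, and it did not pass (log2 change -0.75 ± 0.32, adjusted p = 0.12).

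The members' share of the summed intensity of the 685 single-gene probes was 51.0 ± 4.3% at 20 µE and 61.5 ± 1.2% at 200 µE (SD over 3 couple means). Over columns it ran from 47.1 to 55.9% and from 59.9 to 62.4%, without overlap. Without AT2G27290 the shares were 44.7 ± 2.3 and 55.9 ± 1.1%. The members' summed intensity itself was 327 to 344 units at 20 µE and 282 to 338 at 200 µE, so that the larger share went with lower sums of the other single-gene probes. Measured against all 3439 probes, the share was 9.15 to 10.8% and 10.02 to 10.6%, and the groups overlapped. The rule chose the members on the 20 µE columns, and these shares are given without a test.

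**Figure D2:**
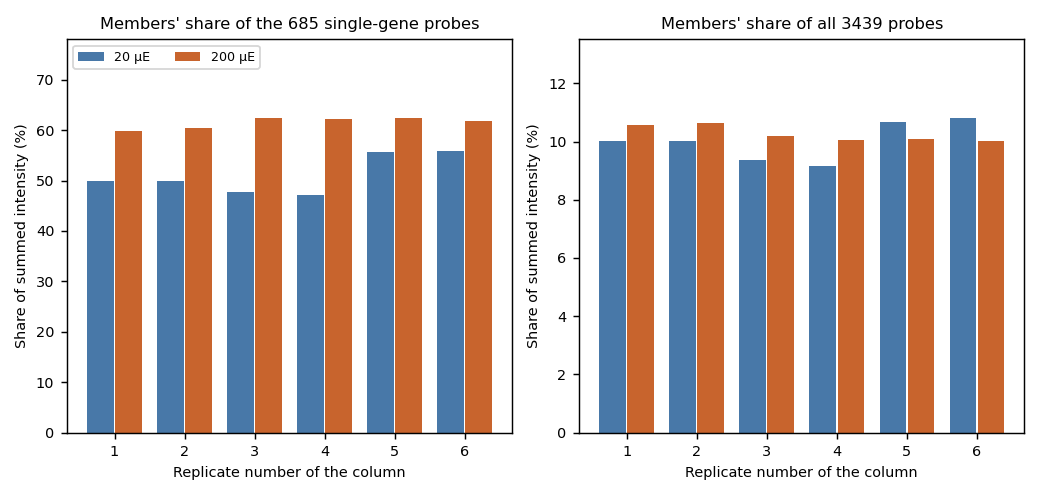
Share of summed intensity held by the 60 members in each column, as a percentage of the 685 eligible single-gene probes (left) and of all 3439 probes (right), with 1 bar per column for 20 µE (blue) and 200 µE (orange). On the left all 200 µE bars, at 59.9 to 62.4%, stand above all 20 µE bars, at 47.1 to 55.9%; on the right the groups overlap.

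In deposited units 24 members had a higher mean at 200 µE and 36 a lower one. Over all 685 eligible probes 131 were higher and 504 lower, the other 50 being listed at 0 throughout. For 47 members the ratio of the mean at 200 µE to that at 20 µE lay between 0.5 and 2, for 12 it was under 0.5 and for 1 over 2. The median log2 change of the members was -0.33 after quantile normalisation and -0.21 as deposited, against -0.08 and -1.32 over the 685 probes. After median centring it was 1.15, against 0.04. A direction is therefore given only for members whose change had the same sign under all 3 scalings: 17 were higher and 9 lower at 200 µE in this sense, and 34 changed sign. Of the 685 eligible probes 97 (14.2%) were higher and 271 (39.6%) lower in this sense. Median centring raised the deposited change of every probe by the same amount. It is therefore no separate check of a rise, and asking for the same sign favours rises over falls in these counts.

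Of the 60 members, 5 fell at 200 µE and none rose (limma on couple means, adjusted p under 0.05). Over all 3175 fitted probes 27.5% were called, 13.3% as lower and 14.2% as higher. The 20 µE values that chose the members enter every difference, which favours falls among them, so nothing is read from this count. At an unadjusted p under 0.05 there were 17 members, 15 lower and 2 higher, against 41.8% of the fitted probes, 21.2% lower and 20.6% higher. A member that did not pass is not shown to be unchanged. Treating the 12 columns as independent gave 27 (24 lower, 3 higher; background 53.1%). The main fit did not pair the lights by column number. Blocking on the couple, which pairs them, gave 8, all lower (background 34.0%). Blocking on the replicate number over 12 columns gave 30, of which 25 were lower (background 57.5%). Without normalisation there were 13, of which 11 were lower (background 55.6%), and under median centring 38, of which 35 were higher (background 47.5%). Without columns 1 and 2, or without columns 3 and 4, of both groups no member passed in limma (5 in each case at an unadjusted p under 0.05), and without columns 5 and 6 there were 12, all lower.

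**Figure D3:**
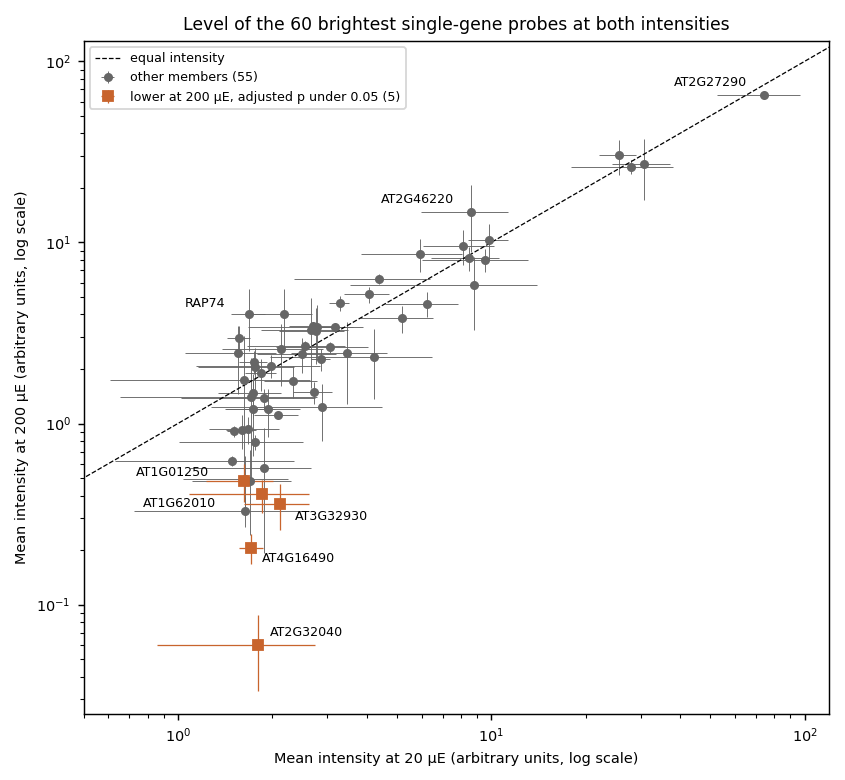
Mean intensity of the 60 members at 20 µE (x axis) and 200 µE (y axis), in arbitrary units on log scales, with SDs over 3 couple means as bars and equal intensity as a dashed line. The 5 members that fell, in orange, had means between 1.62 and 2.12 units at 20 µE and between 0.0602 and 0.481 at 200 µE, while the 4 brightest lie close to the line.

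The largest fall was that of AT2G32040, which carries folates across the envelope of chloroplasts. It measured 0.762, 2.02 and 2.66 units at 20 µE (lowest, median, highest) and 0.0323, 0.0561 and 0.0889 at 200 µE. Every 20 µE column lay above every 200 µE column, although columns 5 and 6 at 20 µE were well below the other 4. Its mean was 29.8 times as high at 20 µE, its log2 change -3.79 ± 0.56 (adjusted p = 0.0048), and it dropped from place 41 to 500.

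AT4G16490, a protein of armadillo repeats, which commonly bind other proteins, measured 1.41, 1.76 and 1.91 units at 20 µE and 0.160, 0.204 and 0.277 at 200 µE. The 2 groups were each narrow and far apart, with a log2 change of -2.34 ± 0.33 (adjusted p = 0.0044) and a move from place 47 to 317. AT3G32930, whose function is not given here, measured 1.31, 2.14 and 2.65 units and 0.251, 0.358 and 0.495, a log2 change of -2.13 ± 0.33 (adjusted p = 0.0060). Its groups did not overlap, and it moved from place 33 to 213.

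AT1G62010 belongs to the mTERF family, whose members act on transcription and transcripts in chloroplasts and mitochondria. It measured 0.958, 1.90 and 2.63 units at 20 µE and 0.314, 0.404 and 0.543 at 200 µE, and its log2 change was -1.63 ± 0.41 (adjusted p = 0.028). AT1G01250, a transcription factor of the ERF family that binds DNA through an AP2 domain, measured 1.11, 1.68 and 2.11 units and 0.362, 0.460 and 0.640. Its log2 change was -1.23 ± 0.29 (adjusted p = 0.022). For both genes the groups did not overlap, but under median centring neither passed (log2 change -0.76 and -0.39, adjusted p = 0.11 and 0.27).

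All 5 also passed in the fit that blocks on couples (adjusted p = 0.0040 to 0.035) and without any single column. Leaving out 1 column keeps its neighbour and so all 3 couples, which makes it a weak check. Without columns 1 and 2, or without columns 3 and 4, of both groups none of the 5 passed in limma. When the 60 brightest were chosen on columns 1 and 2 alone, 54 were the same probes, among them 4 of the 5, all but AT4G16490. Columns 1 and 2 also entered the choice of the members, so this overlap is partly built in and is no check of the falls. Without columns 1 and 2 of both groups the log2 changes of the 4 were -3.56 (AT2G32040), -2.13 (AT3G32930), -1.58 (AT1G62010) and -1.29 (AT1G01250). All 4 kept their sign, but none passed in limma (adjusted p = 0.11 to 0.22).

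**Figure D4:**
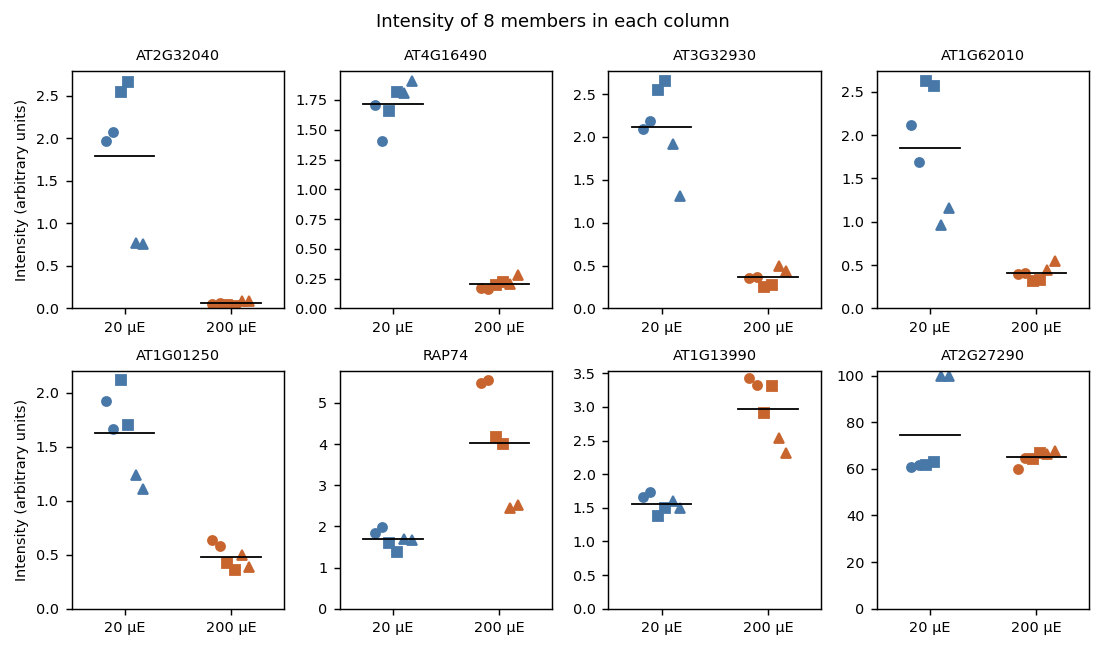
Intensity in arbitrary units of 8 members in each of the 6 columns at 20 µE (blue) and 200 µE (orange), with circles for columns 1 and 2, squares for 3 and 4, triangles for 5 and 6, and a black line at the mean; each panel starts at 0. The groups are apart for the 5 members that fell and, in the other direction, for RAP74 and AT1G13990, and overlap for AT2G27290, whose column 6 at 20 µE reached the upper end of the scale.

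In rank, 16 members lay lower in every 200 µE column than in every 20 µE column, and 2 lay higher. Among the 685 eligible probes 14.6% were wholly lower and 28.9% wholly higher. In deposited intensity 15 members lay wholly lower and 4 wholly higher, against 42.5% and 5.26% of the eligible probes. Since the rule took the top of the 20 µE order, a move down was open to all members and a move up of many places to few. The 60 probes at places 61 to 120 gave similar counts, 17 lower and 6 higher, and 10 of them were among the 60 brightest at 200 µE. The members lay lower in 42 cases by mean, higher in 15 and at the same place in 3. The 8 that lost most places were AT2G32040 (459 places), AT4G16490 (270), AT3G32930 (180), AT2G03390 (178), AT1G62010 (162), AT1G20130 (131), AT1G01250 (125) and AT1G61990 (121), all from places 33 to 54.

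The 2 members whose ranks were wholly higher at 200 µE were RAP74 and AT1G13990. RAP74, the large subunit of the general transcription factor TFIIF, measured 1.38, 1.68 and 1.98 units at 20 µE and 2.44, 4.09 and 5.57 at 200 µE. All 200 µE columns lay above all 20 µE columns, and it moved from place 50 to 20, but the log2 change of 1.103 ± 0.37 missed the threshold (adjusted p = 0.066). AT1G13990, of unknown function, measured 1.38, 1.55 and 1.74 units and 2.32, 3.11 and 3.43, moving from place 57 to 29 (log2 change 0.87 ± 0.30, adjusted p = 0.070). Both were higher under all 3 scalings and passed in limma as deposited (adjusted p = 0.028 for RAP74 and 0.027 for AT1G13990). They also passed under median centring, which raised every change alike (adjusted p = 0.0015 and 0.0012).

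The members with a role in photosynthesis or its pigments numbered 6. All stayed among the 60 brightest, none passed, and all had overlapping ranks. Of all 60 members 40 stayed, 5 passed and 18 had ranks that did not overlap, and 27.5% of the fitted probes passed. So small a group, placed by hand, is only described, and LHB1B2, PSBW, PSBY and PSAN had been set aside by name. NdhS, the subunit through which ferredoxin docks on the chloroplast NDH complex of cyclic electron flow, measured 5.85, 7.98 and 10.4 units at 20 µE and 6.87, 10.5 and 11.3 at 200 µE. AT1G76450, of the PsbP family of thylakoid lumen proteins, measured 4.02, 5.52 and 8.58 units and 6.37, 9.07 and 10.2. AT3G44020, another lumen protein, had means of 2.54 ± 0.88 and 2.67 ± 0.18 units.

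The geranylgeranyl reductase AT1G74470, which makes the phytyl tail of chlorophyll and tocopherol, had means of 3.16 ± 0.46 and 3.40 ± 0.21 units. AT1G78620, the VTE6 phytyl phosphate kinase that recycles phytol for tocopherol, had means of 1.99 ± 0.85 and 2.08 ± 0.29 units. PSB27, an assembly factor of photosystem II, was among the most variable members: at 20 µE it measured 0.428, 1.93 and 2.48 units and at 200 µE 0.585, 1.40 and 3.61. In both lights its columns 5 and 6 were its lowest, at 0.428 to 0.686 units. The log2 changes of the 6 genes lay between -0.22 and 0.33. NdhS, AT1G76450, AT1G78620 and PSB27 were higher under all 3 scalings, whereas AT1G74470 and AT3G44020 had negative changes after quantile normalisation and positive ones otherwise. Without columns 5 and 6 of both groups the quantile-normalised changes of NdhS (-0.018), AT1G78620 (-0.32) and PSB27 (-0.0997) turned negative, so their direction is not settled.

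Of 5 members of organelle gene expression, 4 were mTERF genes, and those 4 had lower means at 200 µE, as did 36 of the 60 members and 73.6% of the eligible probes. Besides AT1G62010, AT1G61990 measured 1.02, 1.53 and 2.30 units at 20 µE and 0.331, 0.432 and 0.752 at 200 µE, without overlap, with a log2 change of -1.24 ± 0.40 (adjusted p = 0.058). AT1G62150 measured 1.75, 2.01 and 2.46 units and 1.07, 1.12 and 1.18, again without overlap in intensity (log2 change -0.73 ± 0.33, adjusted p = 0.14). AT4G09620 had means of 1.73 ± 0.305 and 1.20 ± 0.54 units and overlapping groups (adjusted p = 0.57). For AT1G62150 and AT4G09620 the sign turned under median centring, to 0.47 and 0.76. In the gene order of the TAIR10.1 assembly AT1G61990 and AT1G62010 are 2 protein-coding genes apart, and AT1G62150 follows 13 genes later. Whether such close relatives share signal on their probes was not tested, since no sequences were at hand. The remaining gene, AT1G12800, with an S1 RNA-binding domain, measured 1.60, 2.34 and 2.68 units and 2.62, 3.68 and 5.97 and moved from place 31 to 19 (log2 change 0.65 ± 0.44, adjusted p = 0.30).

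Among 5 members of carbohydrate metabolism none passed, where 5 of all 60 members and 27.5% of the fitted probes did. AT4G18180, resembling pectin lyases that cut cell wall pectin, measured 2.96, 3.31 and 3.66 units at 20 µE and 4.18, 4.54 and 5.17 at 200 µE. All its 200 µE columns were above all 20 µE columns as deposited, but its ranks overlapped (places 18 and 15; adjusted p = 0.615). ATSPS4F, a sucrose-phosphate synthase of sucrose synthesis, had means of 1.74 ± 0.18 and 2.20 ± 0.31 units. The sugar kinases of the pfkB family lay lower in rank: AT1G06730 moved from place 17 to 37, with means of 3.47 ± 1.18 and 2.45 ± 1.17 units (adjusted p = 0.16). AT1G17160 moved from 51 to 91, with means of 1.67 ± 0.42 and 0.928 ± 0.160 units (adjusted p = 0.19). Their log2 changes of -0.85 and -0.56 became 0.77 and 0.52 under median centring.

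The 9 members of oxidoreductases and other enzymes held none that passed, and 4 had ranks wholly lower at 200 µE, where 16 of all 60 members and 14.6% of the eligible probes did; so small a group, placed by hand, is only described. AT3G04650, an oxidoreductase binding FAD and NAD(P), measured 2.15, 2.95 and 3.33 units at 20 µE and 1.41, 2.45 and 2.63 at 200 µE (log2 change -0.61 ± 0.24, adjusted p = 0.11). AT4G27250, with a Rossmann fold, measured 1.80, 2.36 and 2.99 units and 1.33, 1.83 and 2.02. Both changed sign under median centring (1.004 and 0.92), as did AT4G29890 (0.94).

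AT1G20130, a GDSL esterase, measured 1.102, 1.71 and 2.33 units and 0.190, 0.537 and 0.718, without overlap. It was lower under all 3 scalings, narrowly missed the threshold (log2 change -1.41 ± 0.43, adjusted p = 0.051) and passed when couples were blocked (adjusted p = 0.018). AT5G10920, the argininosuccinate lyase of arginine synthesis, measured 1.04, 3.65 and 4.05 units and 0.834, 1.14 and 1.70, moving from place 21 to 68 (adjusted p = 0.24). AT4G24750, with a rhodanese domain, had means of 1.76 ± 0.75 and 0.787 ± 0.078 units, and AT5G62840, of the phosphoglycerate mutase family, 1.51 ± 0.07 and 0.906 ± 0.066. For these last 2 the deposited intensities did not overlap, the ranks did, and neither passed (adjusted p = 0.205 and 0.42).

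Signalling and mitochondrial proteins gave 5 members, all of which stayed among the 60 brightest without passing. Of all 60 members 40 stayed and 5 passed, as did 27.5% of the fitted probes, so this small group is only described. AT4G32060, the MICU regulator of calcium uptake by mitochondria, held place 9 in both lights, with 6.02, 8.84 and 10.6 units at 20 µE and 6.74, 8.24 and 9.86 at 200 µE. AT4G39690, the MIC60 subunit that shapes the inner mitochondrial membrane, held place 23, with means of 2.78 ± 1.11 and 3.43 ± 1.09 units. The kinases AT2G39360 and AT5G40030 moved from place 24 to 26 and from 27 to 25. CML30, a calmodulin-like calcium sensor, was the only one of the 5 with wholly lower ranks, 16 to 29 at 20 µE and 32 to 36 at 200 µE, yet its intensities of 1.94, 3.17 and 4.03 units and 2.39, 2.68 and 2.81 overlapped (adjusted p = 0.27).

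Nuclear and regulatory proteins gave 6 members, CCL, RAP74 and AT1G01250 among them. XERICO, a RING-H2 protein that raises abscisic acid when overexpressed, measured 1.9999, 3.86 and 6.76 units at 20 µE and 1.29, 2.41 and 3.41 at 200 µE. Its groups overlapped, its log2 change was -0.96 ± 0.50 (adjusted p = 0.19, but 0.0498 when couples were blocked), and the sign turned under median centring (0.55). AT3G16310, the nucleoporin NUP35, had wholly lower ranks, with means of 1.94 ± 0.52 and 1.20 ± 0.36 units (adjusted p = 0.20). AT5G11010, of a family linked to pre-mRNA cleavage, had means of 1.76 ± 0.60 and 2.04 ± 0.59 units.

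Besides AT4G17070 and AT2G32040, transport, traffic and folding included CUTA, a copper-binding protein of the chloroplast, with 1.45, 1.95 and 2.03 units at 20 µE and 1.28, 1.99 and 2.24 at 200 µE. Its log2 change was -0.02 ± 0.25. AT1G73430, a subunit of the COG complex that tethers vesicles at the Golgi, moved from place 58 to 36, with means of 1.56 ± 0.51 and 2.46 ± 1.01 units (log2 change 0.66 ± 0.40, adjusted p = 0.26). It was higher under all 3 scalings.

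Among the 5 proteins known mainly for their repeats, 3 had wholly lower ranks, against 16 of all 60 members and 14.6% of the eligible probes. Besides AT4G16490 these were AT4G21170, with pentatricopeptide or tetratricopeptide repeats, and AT3G09080, with WD40 repeats. AT4G21170 measured 2.28, 2.76 and 3.17 units at 20 µE and 1.31, 1.41 and 1.77 at 200 µE, without overlap (log2 change -0.91 ± 0.30, adjusted p = 0.066; 0.49 under median centring). AT3G09080 had means of 5.17 ± 1.348 and 3.801 ± 0.64 units (adjusted p = 0.10; 0.93 on the log2 scale under median centring). AT1G51350, of the armadillo type, had means of 4.06 ± 0.67 and 5.17 ± 0.53 units, and AT3G26580, with tetratricopeptide repeats, measured 2.11, 2.80 and 3.17 units and 3.35, 3.43 and 3.66. The intensities of AT3G26580 did not overlap but its ranks did, and its log2 change was 0.08 ± 0.30.

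The other members, 15 in all with AT2G27290, AT4G22830 and AT2G46220, have no role given here or one known only from a motif. AT5G50350 had means of 4.37 ± 2.03 and 6.31 ± 0.39 units and moved from place 14 to 11. AT4G13680 measured 0.964, 2.07 and 2.64 units at 20 µE and 0.127, 0.733 and 0.887 at 200 µE. Its groups did not overlap, its columns 5 and 6 were lowest in both lights, and its log2 change of -1.57 ± 0.62 did not pass (adjusted p = 0.10). It did pass in limma when couples were blocked (adjusted p = 0.015), over 12 columns counted as independent (0.0099) and without columns 5 and 6 (0.042). It did not pass without columns 1 and 2 (adjusted p = 0.29), without columns 3 and 4 (0.29), as deposited (0.056) or under median centring (0.43).

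AT2G03390, with a uvrB/uvrC motif, measured 0.595, 1.81 and 2.57 units and 0.270, 0.312 and 0.468 (log2 change -1.52 ± 0.55, adjusted p = 0.080), lower under all 3 scalings. AT2G04790 had wholly lower ranks, with means of 1.60 ± 0.17 and 0.924 ± 0.197 units (adjusted p = 0.19; 0.55 on the log2 scale under median centring). AT2G46300, of the late embryogenesis abundant hydroxyproline-rich family, measured 0.229, 2.24 and 2.47 units at 20 µE, with ranks from 33 to 457, the widest span of ranks among the members at 20 µE. At 200 µE it measured 0.291, 1.71 and 2.13 units, the lowest values being columns 5 and 6 in both lights. AT3G54550 and AT4G08940 moved from place 38 to 62 and from 45 to 59, AT2G44760 from 29 to 38 and AT5G06010 from 32 to 35, none passing (adjusted p = 0.56 to 0.87).

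**Figure D5:**
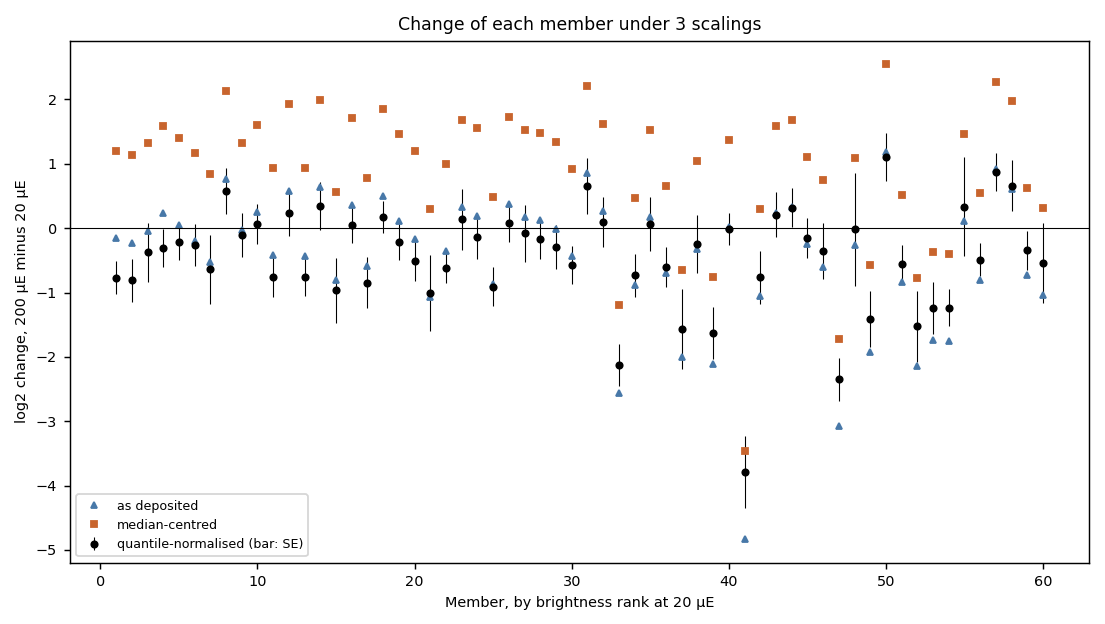
log2 change (200 µE minus 20 µE) of each member, ordered by brightness rank at 20 µE, after quantile normalisation (black, with SE), as deposited (blue triangles) and after median centring (orange squares). Most members lie below 0 or near it in black and above 0 in orange, 34 with a change of sign, while AT2G32040 at rank 41 and AT4G16490 at rank 47 are far below 0 in all 3.

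The limit of the list fell among probes of nearly equal brightness. The last members were AT1G73430, AT5G62840 and AT2G22890, with means at 20 µE of 1.56, 1.51 and 1.48 units. The first outside were AT3G20490, AT4G22190 and AT4G23080, with 1.48, 1.47 and 1.46. The SDs of these 6 probes ran from 0.074 to 0.857 units, so membership at the limit is not settled beyond the spread between couples. AT2G22890 itself measured 0.394, 1.91 and 2.102 units at 20 µE, its columns 5 and 6 being far below the rest, and 0.368, 0.600 and 0.939 at 200 µE.

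The 5 highest of the 20 probes that entered the 60 brightest at 200 µE were AT1G73120 (place 13, from 393), AT1G01080 (16, from 76), AT1G16080 (18, from 343), AT5G52810 (27, from 487) and AT1G07970 (28, from 92). Their means at 200 µE, between 3.01 and 5.72 units, were below those of the 12 highest members there. Spread between couples was moderate among the members: the coefficient of variation over couple means had a median of 27.6% at 20 µE and 21.1% at 200 µE, against 33.1 and 30.8% for the other 625 eligible probes. It ran from 4.90 to 62.5% and from 1.51 to 74.6% among members.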

How the data were processed

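Of the arrays only the processed value table was used. Per the values, the deposited table holds linear intensity from 0 to 100 in arbitrary units, and how the authors corrected and scaled it is not stated in what was used here. Group and replicate number came from the sample titles. Probes were named through the platform annotation matched to RefSeq's genes of assembly TAIR10.1 (683 of 685 identifiers found); 52 of the 60 members carry only a locus identifier there, so name patterns placed 3 members in classes, and the role groups were assigned by hand from background knowledge after the members were known. Members and lists were chosen with earlier results of these data known.

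Zeros were replaced, column by column, by the 1st percentile of the positive values, and log2 values were quantile-normalised over 3439 probes. The couples were averaged, and 3175 probes (264 at 0 in all columns left out) were tested with limma 3.58.1 in R 4.3.3, two-sided, 200 µE minus 20 µE, with Benjamini-Hochberg adjustment. The fit was checked on simulated data. Same-numbered columns of the groups tended to deviate together (correlations 0.16 to 0.49 for 6 pairs, against -0.33 to 0.40 for 30 pairs of other numbers). The ranges overlap and the labels name no pairs, so a pairing by number is not settled. The main fit left it out, and the fits with blocks are the alternatives that use it. Couples within a group gave 0.14 to 0.75 and other columns of a group at most 0.071. The precision is limited by the 3 couples per group, whose independence is not known. Named by rule were the 12 brightest, the 8 with most places lost and gained (ties at 3 places), the falls past the threshold, the 3 probes on either side of the limit and the 5 highest entrants; the rest are examples by role. Ranks are by mean deposited intensity. No sequences of probes, promoters or proteins were used here. Alternatives were other scalings, a pseudocount, blocks, filters, a variance trend, a threshold of 0.01, columns or couples left out and other ways to choose the members.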

Additional observations from a re-analysis of the deposited data

Results flagged for a closer look

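In 120 sets of 6 columns (60 members in each light) 1 held a column apart from the rest. Chance would give 1 in 20, or 6, were the columns independent. Neighbouring columns deviated together, so nothing is read from that comparison. AT2G03390 measured 0.468 units in column 6 at 200 µE, and the other columns lay between 0.270 and 0.331.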

How the results depend on the processing

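Against 5 members called, there were 13 without normalisation (2 higher), 38 under median centring (35 higher, 3 lower), 27 over 12 columns, 30 with the replicate block over 12 columns, 8 with the couple as a block, 9 with probes at 0 kept or, added after seeing the data, with the floor for all values under it, 11 with a variance trend (2 higher) and 3 at a threshold of 0.01, where AT1G62010 and AT1G01250 were lost. Leaving out 1 column gave 5 to 6; leaving out a couple gave 0 (columns 1 and 2, or 3 and 4) or 12 (5 and 6). Over the table the 873 calls (451 higher, 422 lower) became 1765 without normalisation (177 higher), 1507 under median centring (851 higher), 1686 over 12 columns, 1827 with the replicate block, 1080 with the couple as a block, 381 over annotated probes only (fewer probes tested), 309 at 0.01, 821 to 876 without 1 column, and 32, 89 and 854 without columns 1 and 2, 3 and 4, or 5 and 6. The 40 shared members stayed 39 to 41 in every alternative run. The median change of -0.33 was 1.15 under median centring, -0.19 for members chosen on columns 1 and 2 and measured in columns 3 to 6, and -0.33 to -0.28 without a 200 µE column. The 18 members with separate ranks became 22, 22 and 33 without columns 1 and 2, 3 and 4, or 5 and 6, and 21 over couple means. The share of 61.5% was 55.9% without AT2G27290 and 61.3 to 61.8% without a 200 µE column. The cause of these shifts was not tested. Under median centring the sign turned for AT2G27290 (1.20), AT4G22830 (1.13), AT4G17070 (1.32), AT4G31530 (1.59), CCL (1.40), AT5G38360 (1.16), AT4G19900 (0.84), AT4G32060 (1.33), AT4G29890 (0.94), AT3G09080 (0.93), XERICO (0.55), AT1G06730 (0.77), AT1G74470 (1.47), CML30 (1.19), AT5G10920 (0.29), AT3G04650 (1.004), AT2G39360 (1.55), AT4G21170 (0.49), AT5G40030 (1.53), AT3G44020 (1.48), AT2G44760 (1.34), AT4G27250 (0.92), AT1G62150 (0.47), AT3G16310 (0.66), AT3G54550 (1.04), CUTA (1.38), AT4G24750 (0.30), AT4G08940 (1.11), AT4G09620 (0.76), AT2G46300 (1.09), AT1G17160 (0.52), AT2G04790 (0.55), AT5G62840 (0.63) and AT2G22890 (0.31). Without normalisation it turned for AT4G31530 (0.24), CCL (0.044), AT1G74470 (0.11), AT2G39360 (0.19), AT5G40030 (0.17), AT3G44020 (0.12) and CUTA (0.019). Without columns 1 and 2 it turned for AT4G32060 (0.025), AT4G39690 (-0.012), AT2G39360 (0.20), AT4G08940 (0.046) and AT2G46300 (0.16), without 3 and 4 for AT3G26580 (-0.070), AT3G44020 (0.17), AT3G54550 (0.076) and AT2G46300 (0.18), and without 5 and 6 for NdhS (-0.018), AT5G50350 (-0.012), AT1G51350 (-0.19), AT5G40030 (0.070), AT1G78620 (-0.32), CUTA (0.050) and PSB27 (-0.0997). Without 1 column AT2G46300 ran from -0.39 to 0.36 and CUTA from -0.074 to 0.039. Motif and protein features were not run, since no sequences were at hand.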

Other observations

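Several of the other probes that entered the 60 brightest at 200 µE had low means at 20 µE. PRA1.B6, of a family of proteins that bind prenylated Rab proteins, had a mean of 0.867 ± 0.179 units in dim and 2.89 ± 0.49 in bright blue light (SD over 3 couples), and IAA31, an Aux/IAA protein of auxin signalling, 0.690 ± 0.126 and 1.503 ± 0.72 units. AT1G18290 had 0.654 ± 0.219 and 2.71 ± 0.31 units and AT2G28540 0.579 ± 0.096 and 1.93 ± 0.84. They are named for their place at 200 µE, so no test is given. Just outside the limit at 20 µE, AT3G20490 had means of 1.48 ± 0.58 and 0.202 ± 0.079 units and moved from place 61 to 320.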
